A study of Mus musculus with 24 samples.

Results

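Macrophages given wild-type lung cancer conditioned medium together with the triterpenoid CDDO-Me were compared with macrophages given control medium together with CDDO-Me, across all genes of the deposited expression table. The 6 libraries of the comparison, 3 of each medium, were taken by their labels out of 24 libraries in the series. In the series, primary bone marrow-derived macrophages (BMDM) of C57BL/6 mice were exposed to media conditioned by LL2 cells, a Lewis lung carcinoma line derived from C57BL/6 mice, in wild-type (WT), KEAP1 knockout (KO) or NRF2 KO form, with CDDO-Me or vehicle. The knockouts were carried by the cancer cells and not by the macrophages. Marrow from femur and tibia was differentiated with M-CSF at 20 ng/mL. Cancer cells conditioned complete DMEM for 48 h, and the control medium (media) was complete DMEM kept on plates without cells. Each well then received 75% conditioned or control medium made up with fresh complete DMEM, with 100 nM CDDO-Me or vehicle for 24 h. The groups are written here as media/CDDO-Me and WT CM/CDDO-Me. The drug was present in both, so that their difference is the effect of the WT cancer medium under the drug. The media/vehicle, WT CM/vehicle and NRF2 KO CM/CDDO-Me groups, with 3 libraries each, are used beside them. The labels number 3 replicates per group, which the study's methods call independent samples, but neither says whether these came from separate mice. The p-values therefore measure the spread between samples of the same group, pooled over all 24 libraries of the series.

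Interferons signal through JAK kinases to STAT proteins, which switch on the IRF transcription factors, guanylate-binding proteins (GBPs), immunity-related GTPases (IRGs), antiviral effectors and the antigen presentation machinery. In macrophages, interferon-gamma drives the classical activation state, whereas IL-4 and related cues drive the alternative state marked by arginase 1, Retnla, Chil3 and the mannose receptor Mrc1. CDDO-Me (bardoxolone methyl) binds KEAP1 and thereby activates NRF2, the transcription factor of the antioxidant and glutathione genes.

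Values were TPM, transcript abundances corrected for transcript length and scaled to the same total in each library, and therefore carry no record of sequencing depth. In bulk RNA, fewer cells of a type and less RNA per cell cannot be told apart. Between 17817 and 18533 genes were above 0 in the 6 libraries, and the NRF2 KO libraries of replicate 3, with 15702 (vehicle) and 16299 (CDDO-Me), stood apart from the rest of the series. Macrophage markers summed to 22040 to 25490 TPM in media/CDDO-Me and 15410 to 18710 TPM in WT CM/CDDO-Me. At an adjusted p of 0.05, 2 of the 10 were higher (Fcgr1 and Mertk) and 1 lower (Cd68). Of all genes tested 13.7% were higher and 13.1% lower, and no direction is drawn from so few markers. Fibroblast markers summed to 2077 to 4942 TPM and 522.4 to 1302 TPM, and neutrophil markers to 33.17 to 52.42 TPM and 33.71 to 60.41 TPM. Markers of T and NK cells, B cells, mast cells with basophils and eosinophils, erythroid cells and epithelial tumour cells each summed to less than 4 TPM in each of the 6 libraries. Dendritic cell markers summed to 1.273 to 1.846 TPM in media/CDDO-Me and 100.3 to 126.9 TPM in WT CM/CDDO-Me, nearly all of it from Clec9a, which is described with the surface molecules.

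**Figure D1:**
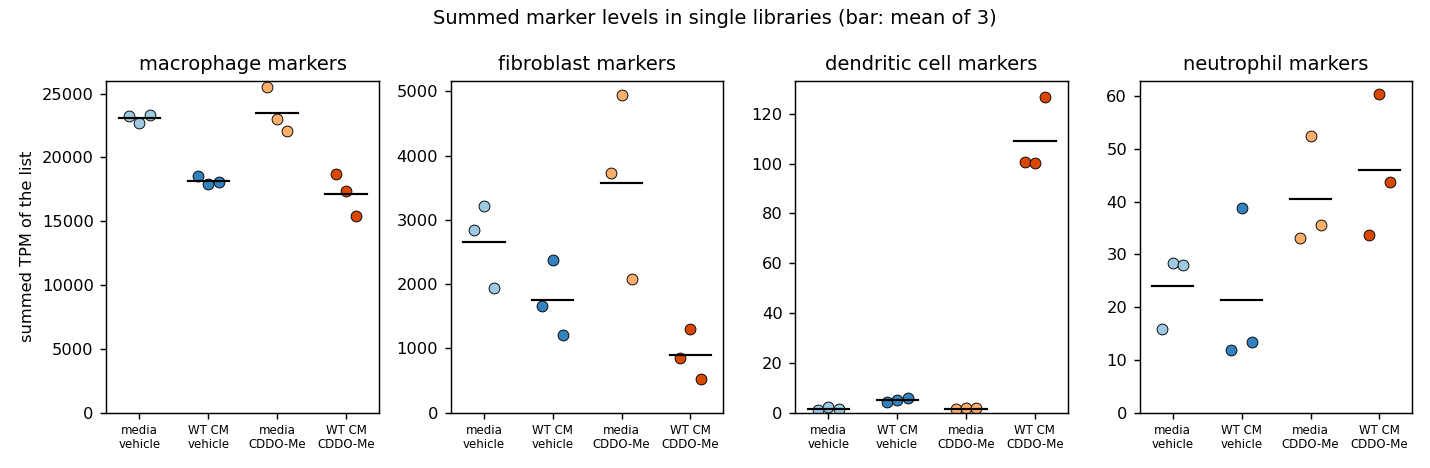
Summed TPM of 4 marker lists in each library of the vehicle and CDDO-Me groups of control and WT media (points: libraries, bars: means of 3). Fibroblast markers reached at most 1302 TPM in WT CM/CDDO-Me and at least 2077 TPM in media/CDDO-Me, and dendritic cell markers stood at 100.3 to 126.9 TPM in WT CM/CDDO-Me alone among the 4 groups. With KEAP1 KO medium and CDDO-Me, not drawn here, dendritic cell markers stood at 47, 56.57 and 86.2 TPM.

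Under CDDO-Me, WT CM changed the transcriptome broadly and in both directions. Of 13661 genes tested with limma on log2(TPM + 1) after scaling, 3656 passed an adjusted p of 0.05 (26.8%). Of these, 1870 were higher in WT CM/CDDO-Me (13.7%) and 1786 were lower (13.1%). A log2 fold change of at least 1 was reached by 785 of the higher genes (5.75%) and 782 of the lower genes (5.72%). The median over all genes tested was -0.008. On the scaled values, all 3 libraries of WT CM/CDDO-Me lay above all 3 of media/CDDO-Me for 25.9% of the genes and below them for 25.9%. The number of genes that passed rose to 5979 when the NRF2 KO libraries of replicate 3 were left out of the shared fit. Without scaling, the median moved to -0.159 and 33.6% of the 4059 genes that passed were higher, against 51.1% with scaling, so directions are given relative to the scaled median.

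The 15 largest rises belonged to interferon-inducible GTPases (Iigp1, Gbp2, Gbp2b, Gbp4, Gbp5, Gbp6, Gbp8, Gbp10, Tgtp1 and Tgtp2), chemokines (Cxcl9, Cxcl10 and Ccl5), the serine protease inhibitor Serpina3f and the ion channel gene Calhm6. The largest falls included those of contractile and matrix genes (Acta2, Actg2, Cnn1, Mamdc2 and Ccdc80), the macrophage elastase Mmp12, the cyclin-dependent kinase inhibitor Cdkn1c, the fatty acid carrier Fabp4, the glutathione transferase Gsta3, the chemokine Ccl9, and Ms4a4a, Bex1, Eef1a2 and Gm38356.

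The interferon-inducible GTPases, which attack the vacuoles of intracellular pathogens, had the largest median change of the lists. Of 20 genes listed 19 were tested, and all 19 were higher in WT CM/CDDO-Me, with log2 fold changes from 4.40 to 9.76 and a median of 6.96, while 13.7% of all genes were higher. Of these 19, 9 passed the filter on low values in media/CDDO-Me itself, and the other 10 were tested because of groups where they were higher, which largely fixed their direction. Gbp2b, Gbp10 and Gbp11 were listed at 0 in all 3 media/CDDO-Me libraries, so that the size of their change depends on the 1 TPM added before the log2. Over the alternative fits the change of Gbp2b ran from 5.56 to 11.17 and that of Gbp10 from 4.73 to 10.32. The median of the other 16 members was 6.89. Iigp1 was at 1.44, 1.48 and 0.828 TPM in media/CDDO-Me and 1650, 1690 and 1880 TPM in WT CM/CDDO-Me (log2 fold change 9.76, SE 0.16, adjusted p = 4.1e-19). Gbp2 was at 12.7, 13.1 and 11.6 TPM and 4490, 4150 and 5670 TPM (8.62, SE 0.22, adjusted p = 2.1e-16). Gbp4 was at 0.173, 0.0882 and 0.0866 TPM and 604, 607 and 703 TPM (9.28, SE 0.22, adjusted p = 4.3e-17). Iigp1 and Gbp4 were under 2 TPM and Gbp2 under 14 TPM in all 3 control libraries, and the groups did not overlap. Gbp2b was at 253, 177 and 213 TPM in WT CM/CDDO-Me and listed at 0 in all libraries of media/vehicle and WT CM/vehicle as well. The smallest change in the list was that of Gbp9, at 8.62, 6.94 and 5.36 TPM and 142, 132 and 170 TPM (4.40, SE 0.31, adjusted p = 1.1e-09). Irgm1, Irgm2 and Igtp, which regulate the other IRGs, rose by 5.10, 4.77 and 6.83 on the log2 scale. Gbp2b, Gbp2, Gbp3 and Gbp5 are neighbours on chromosome 3 of GRCm39, the build the authors used, where Gbp2 spans 142326349-142343779. Gbp4, Gbp6, Gbp8, Gbp9, Gbp10 and Gbp11 lie on chromosome 5, where the spans of Gbp4, Gbp8 and Gbp9 overlap. Tgtp1 and Tgtp2 on chromosome 11 and several Gbp genes are close paralogs, and how reads were divided among them is uncertain.

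**Figure D2:**
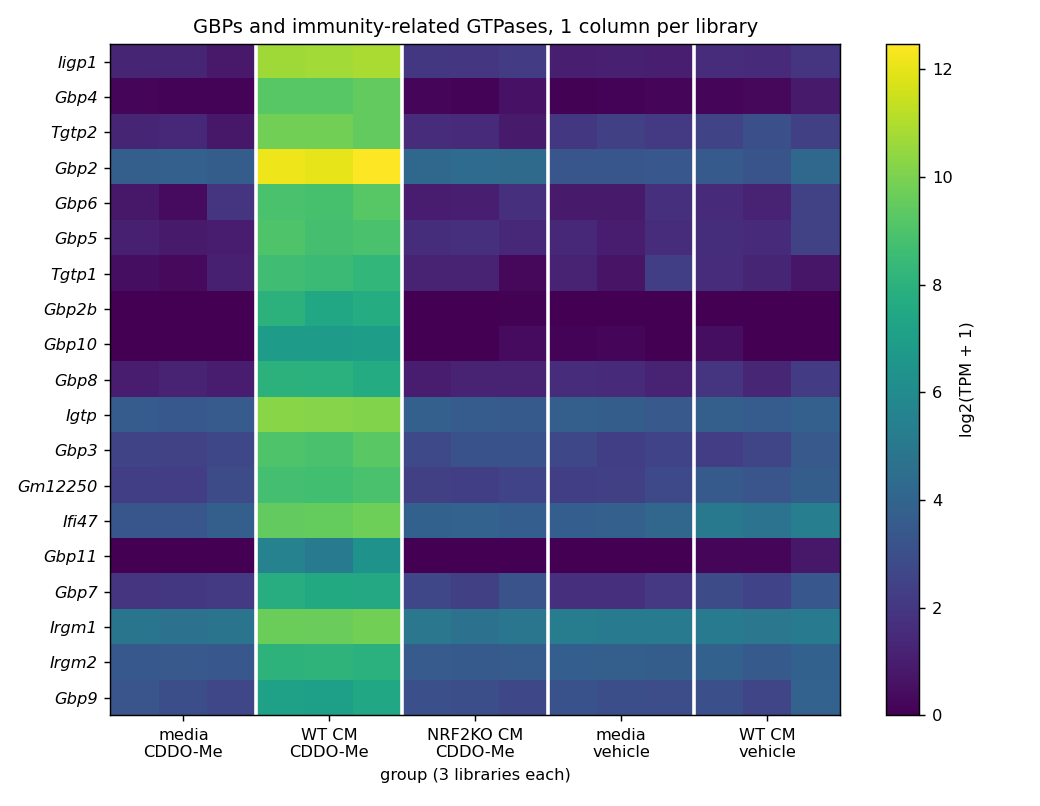
log2(TPM + 1) of the 19 interferon-inducible GTPases tested (rows, ordered by log2 fold change) in 15 libraries (columns, 3 per group). The WT CM/CDDO-Me columns stand above the other 4 groups in every row, Gbp2 reaching 5670 TPM.

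The start regions of the GTPase genes are shown because these genes gave the largest rises and their promoters are known to carry interferon response sequences. Windows from 250 bases before to 50 bases after the annotated start were taken from RefSeq (GRCm38.p6), which held 13 windows for 12 of the 20 listed symbols. They were searched on both strands for 2 copies of GAAA separated by any 2 bases (TTTC on the other strand), the core of the interferon-stimulated response element (ISRE), and for TTCNNNGAA, the gamma-activated site (GAS), which reads the same on both strands. The 3 list members with the largest rise among those with a window are given 5′ to 3′ on the gene's strand with motif matches in capitals.
Tgtp2 (chr11:49064163-49064462, minus strand): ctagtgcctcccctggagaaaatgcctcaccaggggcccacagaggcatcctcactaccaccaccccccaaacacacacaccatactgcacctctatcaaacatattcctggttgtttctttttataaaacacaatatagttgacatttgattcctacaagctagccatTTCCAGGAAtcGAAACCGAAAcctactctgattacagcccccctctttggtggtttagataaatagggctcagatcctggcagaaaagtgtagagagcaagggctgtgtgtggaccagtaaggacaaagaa
Gbp2 (chr3:142620413-142620712, plus strand): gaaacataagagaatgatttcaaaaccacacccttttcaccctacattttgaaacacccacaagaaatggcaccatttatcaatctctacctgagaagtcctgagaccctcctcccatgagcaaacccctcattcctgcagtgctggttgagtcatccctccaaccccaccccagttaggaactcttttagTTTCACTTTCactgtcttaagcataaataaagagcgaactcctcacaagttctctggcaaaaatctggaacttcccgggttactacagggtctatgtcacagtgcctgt
Gbp5 (chr3:142496684-142496983, plus strand): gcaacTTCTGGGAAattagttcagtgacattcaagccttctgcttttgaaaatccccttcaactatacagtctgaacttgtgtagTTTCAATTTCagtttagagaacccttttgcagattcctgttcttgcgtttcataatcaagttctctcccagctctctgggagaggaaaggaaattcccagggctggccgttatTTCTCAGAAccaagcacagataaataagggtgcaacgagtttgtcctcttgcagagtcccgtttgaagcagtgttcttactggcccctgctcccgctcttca
In the Tgtp2 window a GAS match stood upstream of an ISRE match, the Gbp2 window held 1 ISRE match and no GAS match, and the Gbp5 window held 1 ISRE and 2 GAS matches. Of the 13 GTPase windows, 11 held an ISRE match (84.6%), against 3.44% of all 32851 windows. A GAS match was present in 7 of the 13 (53.8%), against 8.3% of all windows, and the same 7 held both motifs, against 0.454%. In none of these 7 did the 2 motifs overlap. Among the antiviral genes described next, 23 of 40 windows held an ISRE match (57.5%) and 7 held a GAS match (17.5%). Among the interferon regulators described below, an ISRE match was found in 3 of 22 windows (13.6%) and a GAS match in 7 (31.8%). A match is a description of the letters and not of binding.

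Among the genes that carry the interferon signal, transcription factors rose and receptors mostly did not differ. Of 21 regulators tested, 20 passed the filter on low values in media/CDDO-Me. Of the 21, 17 were higher in WT CM/CDDO-Me and 0 were lower, with a median of 1.23, while 13.7% of all genes were higher. Irf1, an interferon-induced transcription factor, was at 59.7, 50.1 and 76.5 TPM in media/CDDO-Me and 890, 915 and 986 TPM in WT CM/CDDO-Me (4.07, SE 0.25, adjusted p = 2.1e-10). Batf2 was at 4.52, 3.90 and 6.52 TPM and 279, 265 and 319 TPM (5.77, SE 0.24, adjusted p = 3.9e-13). For these factors the 2 groups were far apart and the spread within each was small. Stat2, which acts in type I signalling, rose by 2.64 on the log2 scale, Irf7 by 3.32, Irf8 by 2.10 and Irf9 by 1.11. Stat3 rose by 1.23, Irf2 by 1.05 and Irf5 by 0.89. The kinases Jak2 and Tyk2 rose by 1.23 and 0.94 (adjusted p = 4.1e-07 and 5e-04). Jak1 (-0.04, adjusted p = 0.85), Ifngr1 (0.00, adjusted p = 1), Ifngr2 (0.15, adjusted p = 0.6) and Ifnar1 (0.06, adjusted p = 0.78) did not pass the test, and of the receptor chains tested Ifnar2 alone did (1.06, adjusted p = 0.00014). Ifng and Ifnb1 themselves were listed at 0 in all 6 libraries. The feedback inhibitor Socs1 was at 0.949, 0.912 and 0.786 TPM and 111, 111 and 125 TPM (6.10, SE 0.21, adjusted p = 1.3e-14), and Socs3 rose by 2.35. Socs1 was under the filter in media/CDDO-Me and was tested because of groups where it was higher, which largely fixed its direction.

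All 42 antiviral genes tested were higher in WT CM/CDDO-Me, while 13.7% of all genes were. Their log2 fold changes ran from 0.94 to 5.88, with a median of 2.52. Of these 42, 33 passed the filter on low values in media/CDDO-Me itself, and the others were tested because of groups where they were higher, which largely fixed their direction. Zbp1, a sensor of unusual nucleic acids that can trigger necroptosis, was at 4.32, 5.41 and 7.34 TPM in media/CDDO-Me and 340, 311 and 388 TPM in WT CM/CDDO-Me (5.88, SE 0.27, adjusted p = 2.1e-12). Ifit2, whose product restrains viral translation, was at 3.12, 3.07 and 3.40 TPM and 95.3, 93.6 and 205 TPM (5.04, SE 0.34, adjusted p = 8.1e-10). Samhd1, which hydrolyses deoxynucleotides, was the most abundant of those named here, at 367, 364 and 453 TPM and 2720, 2500 and 3120 TPM (2.99, SE 0.22, adjusted p = 2.8e-09). Replicate 3 of WT CM/CDDO-Me was the highest for all of these, most clearly for Ifit2. Isg15, the ubiquitin-like modifier, rose by 3.63 on the log2 scale and Usp18, which removes it from proteins, by 2.51. Slfn1, Ifi44, Ifit3 and Ifit1 rose by 4.94, 4.58, 4.54 and 4.32, while Mx1, Oas1a, Rsad2 and Ifitm3 rose by 2.50, 1.53, 1.44 and 1.36. The smallest change was that of Rigi, an RNA sensor, at 15.2, 15.8 and 14.1 TPM and 25.7, 26.9 and 26.5 TPM (0.94, SE 0.19, adjusted p = 0.00071). Ifit3 and its near-identical copy Ifit3b share sequence, so their separate values are uncertain.

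Antigen presentation genes were mostly higher in both classes, while 13.7% of all genes were higher. Of 22 MHC class I genes 20 were higher and 0 lower, with a median of 2.29. Of 12 class II genes, 10 of which passed the filter on low values in media/CDDO-Me, 10 were higher and 0 lower, with a median of 4.05. Ciita, the master activator of class II genes, was at 3.60, 2.79 and 4.44 TPM in media/CDDO-Me and 190, 185 and 214 TPM in WT CM/CDDO-Me (5.59, SE 0.30, adjusted p = 1.8e-11). H2-Ab1, a class II beta chain, was at 129, 132 and 137 TPM and 3500, 3410 and 3620 TPM (4.88, SE 0.32, adjusted p = 4.2e-10). Cd74, the invariant chain, was at 732, 647 and 718 TPM and 13400, 12600 and 13300 TPM (4.40, SE 0.29, adjusted p = 4.2e-10). The 2 groups did not overlap for any of these, and the libraries within each group lay close together. H2-Aa and H2-Eb1 rose by 4.47 and 4.69, and the peptide exchange factor H2-DMa by 4.31. H2-Oa, which restrains that exchange, was at 0, 0 and 0.0374 TPM and 5.15, 3.42 and 4.81 TPM. Ifi30, a lysosomal thiol reductase, was at 250, 283 and 422 TPM and 403, 408 and 580 TPM and missed the threshold (0.73, adjusted p = 0.087), but passed it with a replicate block (adjusted p = 2.5e-05). In class I, Nlrc5, the activator of these genes, rose by 2.63. The peptide transporter Tap1 was at 23.4, 22.4 and 19.8 TPM and 362, 351 and 377 TPM (4.17, SE 0.27, adjusted p = 2.8e-10), and the immunoproteasome subunits Psmb9 and Psmb8 rose by 3.26 and 3.05. B2m, the light chain, was at 4180, 3940 and 4130 TPM and 11900, 11800 and 11700 TPM (1.70, SE 0.36, adjusted p = 0.0013). The heavy chain H2-K1 rose by 1.84, whereas H2-D1, at 2820, 2690 and 3400 TPM and 3890, 3700 and 3990 TPM, missed the threshold (0.56, adjusted p = 0.1). It passed in 3 of 17 alternative fits (adjusted p down to 2.6e-05). These were array weights, the compared groups alone, and the fit without the NRF2 KO libraries of replicate 3. In each of these all 22 class I genes were higher.

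**Figure D3:**
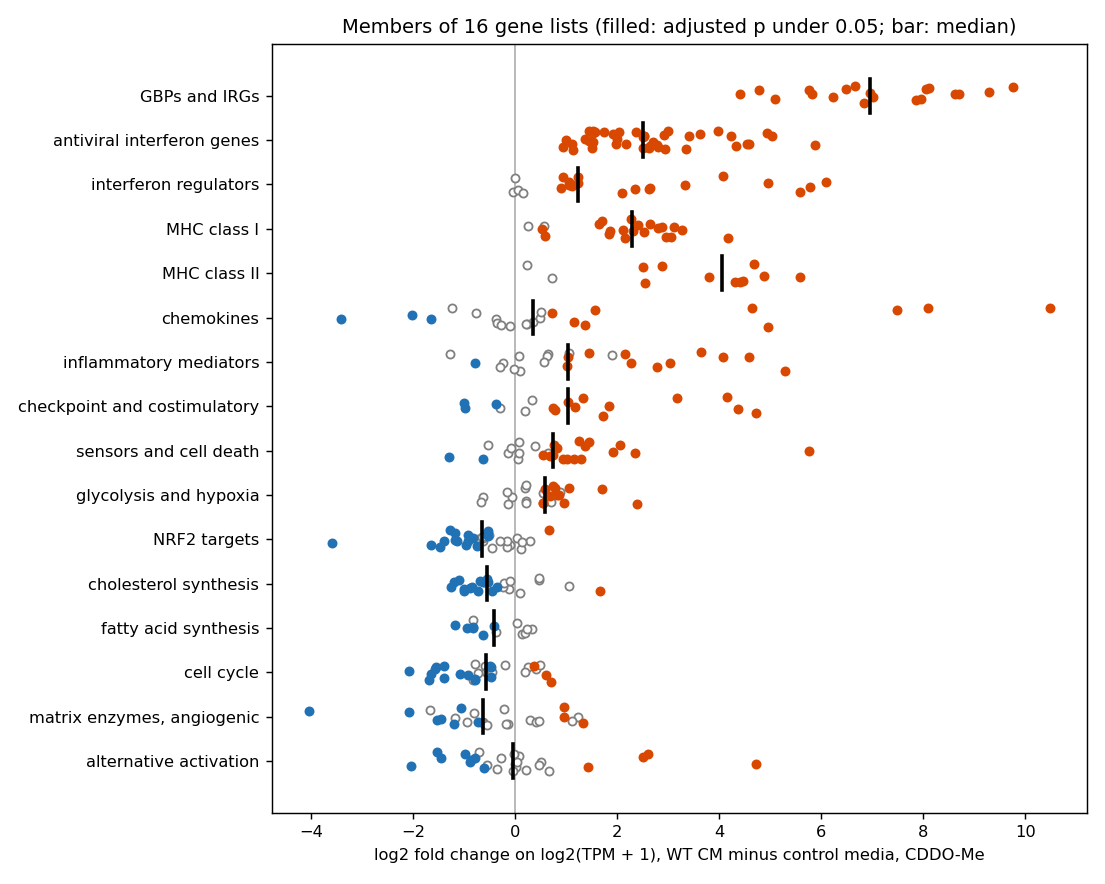
Log2 fold change, WT CM/CDDO-Me minus media/CDDO-Me, of every tested member of 16 gene lists (points, orange higher and blue lower at an adjusted p under 0.05, open otherwise) with the list's median (bar). The 5 interferon and antigen presentation lists hold no called member to the left of 0, and the NRF2 target list holds 15 on the left and 1 on the right.

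Chemokines changed in both directions. Of 23 tested, 14 of which passed the filter on low values in media/CDDO-Me, 9 were higher and 3 lower, the latter 5 with a replicate block. Cxcl9, Cxcl10 and Ccl12 were under that filter and were tested because of groups where they were higher. This largely fixed their direction. The 3 lower are close to the 13.1% of all genes that were lower. Cxcl9, a ligand of CXCR3 on activated T cells and the largest rise of all genes (chromosome 5, 92469206-92475945), was at 0, 0.0125 and 0.084 TPM in media/CDDO-Me and 1790, 1460 and 981 TPM in WT CM/CDDO-Me (10.49, SE 0.24, adjusted p = 2.4e-17). Cxcl10, another CXCR3 ligand next to it on the chromosome, was at 0.036, 0.665 and 0.595 TPM and 361, 329 and 358 TPM (8.10, SE 0.32, adjusted p = 1.5e-13). Ccl5, an attractant of T cells, was at 10.2, 4.08 and 2.82 TPM and 1810, 1150 and 433 TPM (7.49, SE 0.72, adjusted p = 1.3e-07). These lymphocyte attractants were low in every control library, and Ccl5 varied most between the libraries with cancer medium. The Cxcl9 window in RefSeq held neither motif in the 300 bases searched. Ccl8 and Ccl12, monocyte attractants, rose by 4.96 and 4.64. Ccl9 was at 258, 210 and 266 TPM and 32.6, 14.0 and 16.1 TPM (-3.41, SE 0.28, adjusted p = 1.6e-08), and platelet factor 4 (Pf4) and Ccl3 were lower, at -2.03 and -1.65. Among 8 receptors tested, 3 were higher and 3 lower, while 13.7% of all genes were higher and 13.1% lower. Ccr1 and Ccr2 rose by 2.67 and 1.95, and Cx3cr1, Cxcr4 and Ccr3 were lower at -2.87, -2.71 and -1.41.

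Among cytokines and effectors of classical activation, 15 of 23 inflammatory mediators tested passed the filter on low values in media/CDDO-Me. Of the 23, 12 rose and 1 fell, and over all genes tested 13.7% were higher and 13.1% lower. The 1 that fell became 2 with a replicate block and 0 without replicate 1 or 2 of media/CDDO-Me or replicate 3 of WT CM/CDDO-Me. Il27, Nos2 and Acod1, described below, were under that filter and were tested because of groups where they were higher. This largely fixed their direction. Tnf was at 9.20, 8.49 and 9.19 TPM in media/CDDO-Me and 35.4, 40.7 and 39.5 TPM in WT CM/CDDO-Me (2.15, SE 0.24, adjusted p = 1.2e-06). Il27, a cytokine that acts on T cells, was at 0.669, 0.556 and 1.50 TPM and 39.3, 37.2 and 43.5 TPM (4.59, SE 0.28, adjusted p = 1.4e-10). Saa3, an acute-phase protein, was at 1.41, 1.60 and 1.94 TPM and 141, 71.6 and 76.4 TPM (5.28, SE 0.68, adjusted p = 6.7e-06). The risers included genes that restrain inflammation. The interleukin-18 inhibitor Il18bp rose by 3.65 and Il10 by 1.44. The death ligand Tnfsf10 rose by 4.07, the prostaglandin synthase Ptgs2 by 3.04 and the receptor Il15ra by 2.27. Nos2, the inducible nitric oxide synthase, was at 0.123, 0.0824 and 0.0988 TPM and 10.2, 9.08 and 2.09 TPM (2.78, SE 0.49, adjusted p = 0.00022), with replicate 3 well under the other two. Acod1, which makes itaconate from a citric acid cycle intermediate, was at 0.870, 0.543 and 1.97 TPM and 41.8, 29.2 and 32.2 TPM (4.23, SE 0.44, adjusted p = 3.7e-07), and Idh1 was lower at -1.19. Tgfb1 (0.10, adjusted p = 0.8) did not pass.

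Sensors, Fc receptors and complement genes followed the same direction for the most part. Of 26 sensor, inflammasome and cell death genes tested, 24 passed the filter on low values in media/CDDO-Me. Of the 26, 16 were higher and 2 lower. The 2 lower were 0 without replicate 3 of media/CDDO-Me and 1 without any other library except replicate 3 of WT CM/CDDO-Me. Tlr12, an endosomal receptor for profilin, was at 0.0207, 0 and 0.195 TPM in media/CDDO-Me and 49.9, 49.4 and 57.5 TPM in WT CM/CDDO-Me (5.75, SE 0.12, adjusted p = 1.1e-17). Tlr12 was under that filter and was tested because of groups where it was higher, which largely fixed its direction. Tlr9 rose by 2.35, Casp4 by 2.06, the necroptosis effector Mlkl by 1.92, Nlrp3 by 1.44 and the pore-forming Gsdmd by 1.29. Fcgr4, an activating receptor for IgG2 subclasses, was at 14.1, 11.3 and 14.3 TPM and 1070, 997 and 1100 TPM (6.38, SE 0.27, adjusted p = 4.5e-13). Fcgr1 was at 38.7, 34.4 and 36.0 TPM and 494, 448 and 496 TPM (3.86, SE 0.15, adjusted p = 1.3e-13). Both activating receptors were tightly grouped within each medium. Of 13 complement genes and related receptors, 7 were higher and 4 lower. C4b, Cfb and C3 rose by 4.11, 3.93 and 3.78, and the anaphylatoxin receptors C5ar1 and C3ar1 were lower at -1.61 and -0.87. Over all genes tested 13.7% were higher and 13.1% lower, and the share of the sensor list that was lower is under the latter.

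Genes of both costimulatory and inhibitory surface molecules were among those that rose. Of 17 checkpoint and costimulatory genes tested, 13 of which passed the filter on low values in media/CDDO-Me, 11 were higher and 3 lower. The 3 lower were 1 without replicate 3 of media/CDDO-Me, replicate 1 of WT CM/CDDO-Me or replicate 2 of WT CM/CDDO-Me. Over all genes tested 13.7% were higher and 13.1% lower. Cd274, which encodes PD-L1, was at 15.7, 13.6 and 28.2 TPM in media/CDDO-Me and 356, 321 and 386 TPM in WT CM/CDDO-Me (4.37, SE 0.30, adjusted p = 8.6e-10). Cd86 was at 3.59, 3.56 and 3.70 TPM and 75.7, 66.1 and 76.1 TPM (4.15, SE 0.37, adjusted p = 5.2e-08). Cd40 was at 3.60, 3.46 and 2.96 TPM and 32.6, 32.0 and 37.4 TPM (3.17, SE 0.27, adjusted p = 1.9e-08). The groups did not overlap for any of these. Icosl and Havcr2, which encodes TIM-3, rose by 1.83 and 1.72. Cd276 was lower (-0.98, adjusted p = 9.5e-05), and Cd80 did not pass (0.33, adjusted p = 0.12). Clec9a, a receptor for dead cells usually found on cross-presenting dendritic cells, was at 0.0798, 0.0923 and 0.0416 TPM and 95.4, 95.5 and 123 TPM (6.74, SE 0.20, adjusted p = 1.1e-15), and Xcr1 rose by 2.20. Of the 7 dendritic cell markers, 0 passed the filter on low values in media/CDDO-Me. Clec9a and Xcr1 were tested because of groups where they were higher, which largely fixed their direction. Across alternative fits the change of Xcr1 ran from 0.84 to 4.34. The other dendritic cell markers were low in both groups, Flt3, Cd209a, Ccr7 and Siglech staying under 1 TPM in the 6 libraries, and Zbtb46 was at 0.790, 1.12 and 1.22 TPM and 0.453, 0.582 and 0.507 TPM (-0.36, adjusted p = 0.12).

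Many target genes of NRF2 were lower with cancer medium, CDDO-Me being present in both groups. Of 30 targets tested, 15 were lower and 1 higher, with a median of -0.65, and 13.1% of all genes were lower. Gsta3, a glutathione transferase, was at 88.9, 67.4 and 111 TPM in media/CDDO-Me and 6.92, 4.09 and 5.94 TPM in WT CM/CDDO-Me (-3.60, SE 0.33, adjusted p = 5.7e-08). Gclc, the catalytic subunit of the rate-limiting enzyme of glutathione synthesis, was at 103, 95.8 and 139 TPM and 27.7, 28.8 and 36.1 TPM (-1.65, SE 0.28, adjusted p = 0.00016). Nqo1, a quinone reductase and the usual reporter of NRF2 activity, was at 104, 79.0 and 219 TPM and 41.6, 42.7 and 60.5 TPM (-1.17, SE 0.33, adjusted p = 0.012). The Nqo1 call rested on replicate 3 of media/CDDO-Me, without which the change was -0.70 (adjusted p = 0.089). In both CDDO-Me groups Nqo1 stayed above media/vehicle, at 2.63, 2.51 and 4.96 TPM. Gstm1, Srxn1, Txnrd1 and Hmox1 were lower at -1.48, -1.28, -1.14 and -0.83. Slc7a11, the cystine transporter, missed the threshold (-0.72, adjusted p = 0.17) and passed it with a replicate block (adjusted p = 0.042). Prdx1, the most abundant of the named targets at 11000 to 14200 TPM, did not pass (0.04, adjusted p = 0.9). Gstp1 was the 1 target that rose (0.66, adjusted p = 0.0084), and it did not pass without scaling (0.48, adjusted p = 0.097). Nfe2l2, which encodes NRF2, was at 173, 164 and 149 TPM and 120, 111 and 90.6 TPM (-0.43, adjusted p = 0.26), and passed in 2 of 17 alternative fits. The small MAF partner Mafk rose by 0.74.

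Cholesterol synthesis genes were mostly lower. Of 24 cholesterol synthesis genes tested, 14 were lower and 1 higher (2 with a replicate block), with a median of -0.55. Sqle, the squalene epoxidase, was at 19.6, 20.9 and 21.9 TPM in media/CDDO-Me and 6.92, 8.34 and 7.54 TPM in WT CM/CDDO-Me (-1.19, SE 0.14, adjusted p = 1.6e-06). Idi1 was at 17.9, 20.4 and 17.3 TPM and 5.59, 8.22 and 5.52 TPM (-1.25, SE 0.16, adjusted p = 6.7e-06). Cyp51 and Hmgcs1 were lower at -1.10 and -1.01, and the regulators Insig1 and Srebf2 at -0.73 and -0.56. Pmvk, the phosphomevalonate kinase, rose by 1.66. Of 13 fatty acid synthesis genes, 6 were lower and 0 higher, a count that fell to 1 without replicate 1 of WT CM/CDDO-Me, to 3 without replicate 1 or replicate 2 of media/CDDO-Me, and was 4 or 5 without any of the others. Abca1, which exports cholesterol, was at 36.6, 38.1 and 32.9 TPM and 12.7, 11.9 and 12.7 TPM (-1.29, SE 0.09, adjusted p = 6.9e-10). Of 13 genes of cholesterol efflux and its regulators, 5 were lower and 3 higher. Among all genes tested 13.1% were lower and 13.7% higher. Nr1h3, which encodes the oxysterol receptor LXR-alpha, and Apoe were lower at -1.25 and -0.78 (Apoe did not pass when low genes were kept in the fit, adjusted p = 0.18), whereas the exporter Abcg1 rose by 0.97.

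Of 25 glycolysis and hypoxia genes tested, 13 were higher and 0 lower (1 lower with a replicate block), and 8 were higher without scaling or without replicate 1 of media/CDDO-Me, replicate 3 of media/CDDO-Me or replicate 2 of WT CM/CDDO-Me. Pfkp, a platelet-type phosphofructokinase, was at 51.8, 54.2 and 52.5 TPM in media/CDDO-Me and 238, 248 and 257 TPM in WT CM/CDDO-Me (2.38, SE 0.10, adjusted p = 2.8e-13). Pfkfb3, which makes the activator of that enzyme, rose by 1.71 and Gapdh by 0.82, while the glucose transporter Slc2a1 did not pass (-0.06, adjusted p = 0.88). Of 31 cell cycle genes, 15 were lower and 3 higher, and with any of the 6 libraries left out 0 or 1 was higher. Over all genes tested 13.1% were lower and 13.7% higher. Rrm2, a ribonucleotide reductase subunit, was at 35.8, 37.2 and 25.9 TPM and 4.87, 7.36 and 6.29 TPM (-2.09, SE 0.26, adjusted p = 4.4e-06). Ccnb2 and Birc5, which act in mitosis, were lower at -1.68 and -1.58, and the replication factor Mcm3 did not pass (-0.20, adjusted p = 0.44). Cdkn1c, an inhibitor of cyclin-dependent kinases, was at 122, 158 and 125 TPM and 1.72, 3.69 and 1.86 TPM (-5.21, SE 0.30, adjusted p = 7.4e-11).

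Contractile and matrix genes gave several of the largest falls. Acta2, smooth muscle actin, was at 840, 1130 and 530 TPM in media/CDDO-Me and 73.8, 113 and 52.7 TPM in WT CM/CDDO-Me (-3.20, SE 0.33, adjusted p = 4.1e-07). Mamdc2 was at 122, 139 and 127 TPM and 1.38, 1.77 and 1.02 TPM (-5.66, SE 0.32, adjusted p = 4.7e-11). In both groups replicate 2 had the most and replicate 3 the least of Acta2, and the 2 groups did not overlap for either gene. Cnn1, Actg2 and Ccdc80 were lower at -3.96, -3.73 and -3.26, and Tagln and Postn at -2.42 and -2.48. Of the 15 fibroblast markers, 7 were lower (11 with a replicate block) and 0 higher, while 13.1% of all genes were lower. Col1a1 was at 438, 615 and 211 TPM and 109, 180 and 70.4 TPM (-1.61, adjusted p = 0.07, and 0.0011 with a replicate block). The summed fibroblast markers moved with these genes, from 3724, 4942 and 2077 TPM to 843.1, 1302 and 522.4 TPM, and their part in the falls was not tested.

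Several abundant macrophage products were lower too. Mmp12 (chromosome 9, 7344381-7369499) was at 6090, 6430 and 7830 TPM in media/CDDO-Me and 379, 350 and 361 TPM in WT CM/CDDO-Me (-4.04, SE 0.30, adjusted p = 2.7e-09). Osteopontin (Spp1) was at 2070, 2070 and 1930 TPM and 328, 474 and 487 TPM (-2.08, SE 0.19, adjusted p = 5.1e-08). Fabp4 was at 250, 240 and 195 TPM and 17.7, 17.1 and 12.1 TPM (-3.63, SE 0.19, adjusted p = 1.3e-11). These are products of tissue and lipid-handling macrophages, and the 2 groups did not overlap. The scavenger receptor Stab1 was lower at -2.42, the glycoprotein Gpnmb at -1.95, Clec4d at -1.94, the secreted Cd5l at -1.93, the antiangiogenic Thbs1 at -1.45 and the lysosomal Cd68 at -0.83. Trem2 missed the threshold (-0.78, adjusted p = 0.085) but passed in 3 of 17 alternative fits (adjusted p down to 2.1e-07). Adgre1, which encodes F4/80, was level (0.00, adjusted p = 0.99). Of 25 matrix enzyme and angiogenic genes, 7 were lower and 3 higher, the lower ones numbering 12 with a replicate block and 11 without the NRF2 KO libraries of replicate 3. The share that was higher is near the 13.7% of all genes. Of 16 scavenger receptors and lectins, 7 were lower (4 without replicate 3 of WT CM/CDDO-Me) and 3 higher (5 with a replicate block). Among all genes tested these shares were 13.1% and 13.7%. Bex1 and Eef1a2 were lower at -3.71 and -3.44, and Gm38356 was at 21.2, 12.2 and 13.3 TPM and listed at 0 in all 3 WT CM/CDDO-Me libraries.

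Alternative activation genes did not rise together under CDDO-Me. Of 26 tested, 17 of which passed the filter on low values in media/CDDO-Me, 4 were higher and 8 lower. The share that was higher is near the 13.7% of all genes, while 13.1% of all genes were lower. The median was -0.04 (-0.16 without the 2 members listed at 0 in media/CDDO-Me). Without replicate 3 of WT CM/CDDO-Me 3 were lower, and 5 without replicate 1 or replicate 2 of media/CDDO-Me or replicate 1 of WT CM/CDDO-Me. Arg1 (chromosome 10, 24791118-24803817) was at 0.0990, 0.0269 and 0.0943 TPM in media/CDDO-Me and 0.239, 0.0823 and 0.0554 TPM in WT CM/CDDO-Me, and Retnla was listed at 0 in all 6 libraries. Chil3, at 1.39 to 4.56 TPM and 0.856 to 3.70 TPM, and Ccl24, at 0.695 to 1.02 TPM and 0.933 to 1.09 TPM, overlapped between groups. Mrc1 was at 134, 137 and 105 TPM and 59.9, 76.2 and 48.3 TPM (-0.86, SE 0.25, adjusted p = 0.014), a call lost without replicate 3 of WT CM/CDDO-Me (-0.71, adjusted p = 0.079). The signature genes were therefore near absent or lower, and the members that rose were others. The IL-4 receptor chain Il4ra was at 64.0, 64.1 and 57.0 TPM and 349, 340 and 259 TPM (2.50, SE 0.13, adjusted p = 1.8e-11). The transglutaminase Tgm2 and the lectin Clec10a rose by 2.61 and 1.42. Egr2 and Pparg, transcription factors of the alternative state, were lower at -1.45 and -0.89. Pdcd1lg2, which encodes PD-L2 and lies beside Cd274 on chromosome 19, was at 0.0868, 0.142 and 0.383 TPM and 25.7, 26.9 and 31.9 TPM (4.72, SE 0.29, adjusted p = 1.8e-10). It was tested because of groups where it was higher, which largely fixed its direction. Its start window, shown because it was the list member with the largest change, held neither motif.
Pdcd1lg2 (GRCm38.p6, chr19:29410669-29410968, plus strand): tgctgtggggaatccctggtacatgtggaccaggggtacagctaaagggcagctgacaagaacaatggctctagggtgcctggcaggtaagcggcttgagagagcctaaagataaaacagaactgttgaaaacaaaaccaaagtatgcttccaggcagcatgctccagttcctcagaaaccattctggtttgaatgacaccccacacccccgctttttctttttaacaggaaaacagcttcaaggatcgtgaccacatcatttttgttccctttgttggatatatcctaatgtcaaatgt
Of 25 windows of the list, 0 held an ISRE match and 4 held a GAS match (16%).

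The effect of WT CM was then compared with its effect in the absence of the drug. Under vehicle, 1003 genes passed between WT CM and media (7.34%), 591 higher (4.33%) and 412 lower (3.02%). In both conditions, 188 genes were higher, 10.1% of those higher under CDDO-Me and 31.8% of those higher under vehicle. Both effects were negative for 187 genes, 10.5% and 45.4% of the respective lists. A further 93 genes were higher under vehicle but lower under CDDO-Me, and 81 were lower under vehicle but higher under CDDO-Me. The difference between the 2 effects, tested as an interaction, passed for 2055 genes, positive for 1134 (8.30%) and negative for 921 (6.74%). The number rose to 3916 without the NRF2 KO libraries of replicate 3, which are not among the 12 compared but share the fit.

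The interferon genes were high in WT CM/CDDO-Me and low in both WT CM/vehicle and media/CDDO-Me. All 19 GTPases had a positive interaction, as did 39 of 42 antiviral genes, 17 of 22 class I genes, 10 of 12 class II genes and 13 of 21 regulators, 5 of the regulators being higher under vehicle too. Among those tested, 9 GTPases and 33 antiviral genes passed the filter on low values in media/CDDO-Me. The other members of these 2 lists, and Cxcl9, were tested because of groups where they were higher, which largely fixed this direction too. Cxcl9 was at 0.0576, 0.544 and 0 TPM in media/vehicle and 0.0352, 0.0471 and 0.0926 TPM in WT CM/vehicle, and its interaction was 10.64 (adjusted p = 1.1e-14). Irf1 was at 48.4, 46.7 and 54.2 TPM and 74.6, 56.8 and 112 TPM (interaction 3.37, adjusted p = 1e-06). H2-Ab1 was at 220, 203 and 212 TPM and 198, 164 and 283 TPM (interaction 4.83, adjusted p = 1.7e-07). None of these passed the test between media under vehicle (adjusted p = 0.88, 0.11 and 0.98). Tnf changed sign, being lower with WT CM under vehicle at -1.50 (interaction 3.65, adjusted p = 1.7e-07). A few members did respond to WT CM in either setting, since Socs1 rose by 3.71 under vehicle (interaction 2.38, adjusted p = 6.2e-06) and Cd274 by 1.02 (interaction 3.35, adjusted p = 9e-06). For Jak2 (interaction 0.14, adjusted p = 0.74), Pdcd1lg2 (-0.49, adjusted p = 0.56) and Ccl8 (-0.55, adjusted p = 0.58) the difference between the 2 effects did not pass, WT CM having raised them under vehicle by 1.09, 5.20 and 5.51.

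**Figure D4:**
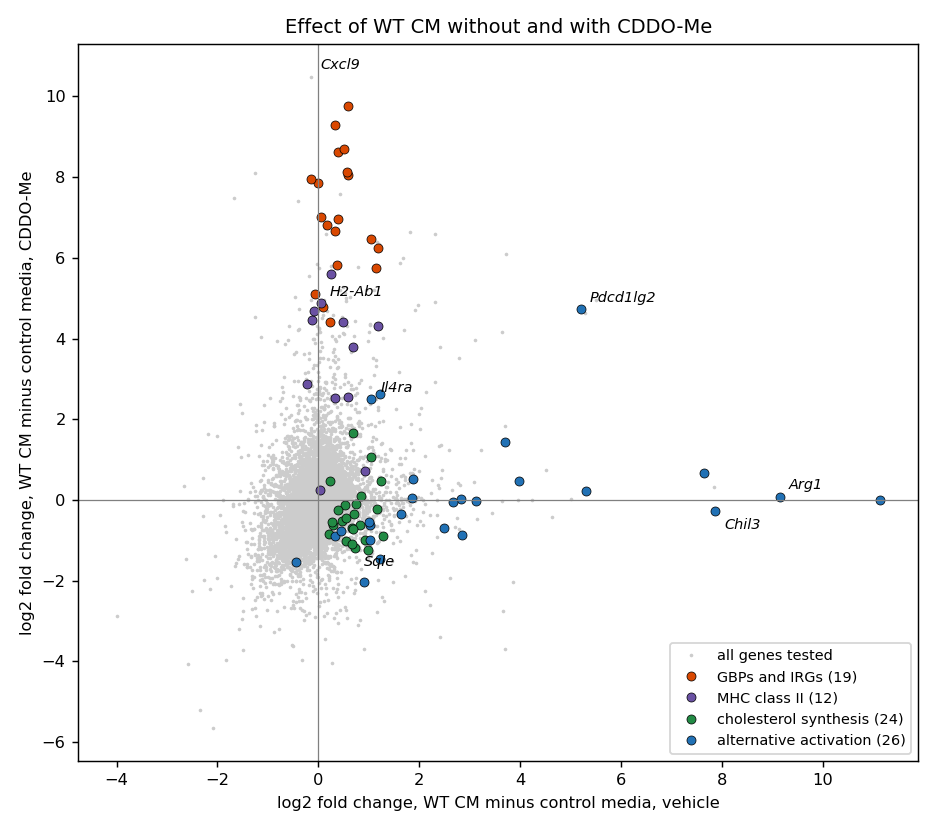
Log2 fold change of WT CM against control media under vehicle (x axis) and under CDDO-Me (y axis) for the 13661 genes tested (grey) and 4 lists (coloured). GTPases and class II genes lie high on the y axis near 0 on the x axis, alternative activation genes extend to the right near 0 on the y axis, and cholesterol genes lie mostly right of 0 and below it.

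The alternative activation genes were high in WT CM/vehicle. Under vehicle 20 of 26 were higher with WT CM and 0 lower, with a median of 2.18, and 22 had a negative interaction and 1 a positive one. Of these 26, 17 passed the filter on low values in media/CDDO-Me, and the others were tested because of groups where they were higher. For members low in control media, such as Arg1, this largely fixed the direction of both results. Arg1 was at 0.0884, 0.301 and 0.128 TPM in media/vehicle and 681, 765 and 544 TPM in WT CM/vehicle (interaction -9.07, adjusted p = 2.2e-14). Chil3 was at 1.09, 3.87 and 2.31 TPM and 461, 668 and 1260 TPM (interaction -8.14, adjusted p = 1.1e-08). Mrc1 was at 157, 164 and 188 TPM and 1310, 1190 and 1010 TPM (interaction -3.70, adjusted p = 2.1e-07). Retnla, at 1990, 1750 and 3260 TPM in WT CM/vehicle, was listed at 0 in media/vehicle and in both CDDO-Me groups. The interactions of Mgl2, Ccl24, Egr2 and Clec10a were -6.98, -5.10, -2.67 and -2.28, and the 1 positive member was Il4ra (1.45, adjusted p = 1.1e-05). Cholesterol synthesis genes also turned. Under vehicle 18 of 24 were higher with WT CM, with a median of 0.69, and 17 had a negative interaction and 1, Pmvk, a positive one. Sqle was at 36.3, 37.5 and 39.0 TPM in media/vehicle and 57.9, 55.9 and 67.5 TPM in WT CM/vehicle (interaction -1.92, adjusted p = 4.8e-07). Idi1 and Hmgcs1 had interactions of -2.24 and -1.56. Among genes that passed both tests, the most negative interactions were those of Ms4a4a (-7.38), the lipase gene Lipn (-6.43), Ear2 (-5.90), Ccl9 (-5.83) and Tmem26 (-5.05). All 5 were higher with WT CM under vehicle and lower with it under CDDO-Me, although the fall of Tmem26, from 1.16 to 1.46 TPM to 0.613 to 0.734 TPM, missed the threshold without replicate 1 of media/CDDO-Me (adjusted p = 0.054), in a fit of the compared groups alone (adjusted p = 0.069) and with a pseudocount of 5 (-0.14, adjusted p = 0.28). Mmp12 did not pass under vehicle (0.28, adjusted p = 0.76), and its interaction was -4.32 (adjusted p = 3.1e-07).

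**Figure D5:**
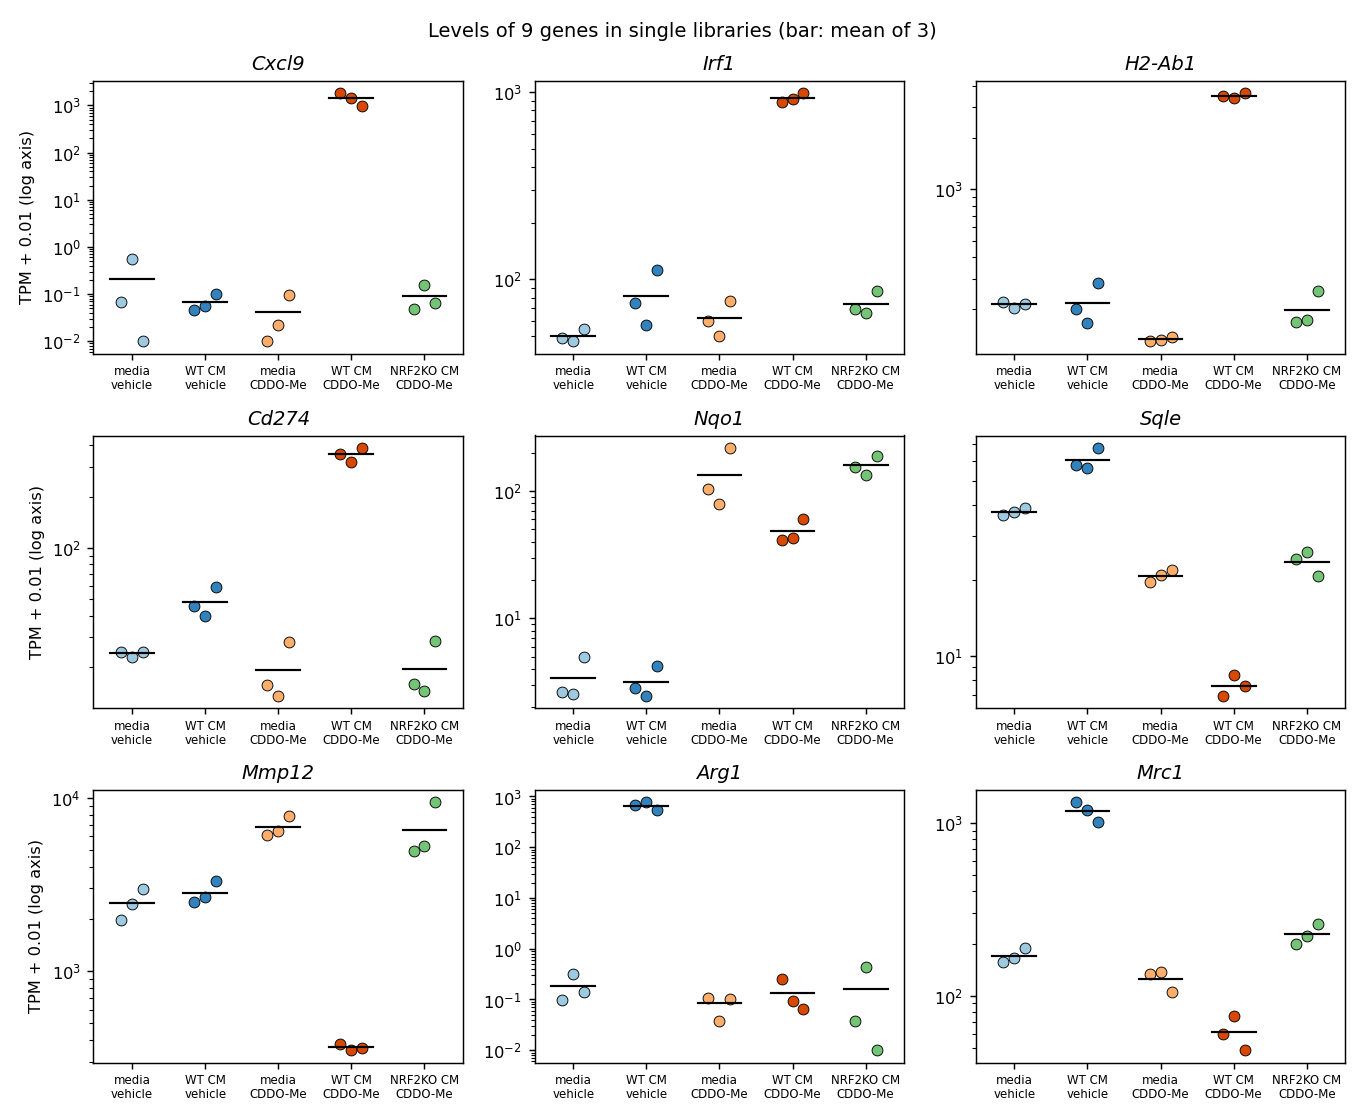
TPM + 0.01 on a log axis of 9 genes in single libraries of 5 groups (points, bars are means of 3). Cxcl9, Irf1, H2-Ab1 and Cd274 are high in WT CM/CDDO-Me, Arg1 and Mrc1 in WT CM/vehicle, and Mmp12 and Sqle are lowest in WT CM/CDDO-Me.

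WT CM was last compared with medium from cancer cells that lacked NRF2, with CDDO-Me in both. Between WT CM/CDDO-Me and NRF2 KO CM/CDDO-Me 3542 genes passed (25.9%), 1892 higher with WT CM (13.8%) and 1650 lower (12.1%). The number was 5492 without the NRF2 KO libraries of replicate 3. All 19 GTPases, all 42 antiviral genes, 17 of 21 interferon regulators, 21 of 22 class I genes and 11 of 12 class II genes were higher in WT CM/CDDO-Me. GTPases and antiviral genes under the filter on low values in media/CDDO-Me, like Cxcl9, were tested because of groups where they were higher. For those that were low with NRF2 KO CM too, this largely fixed the direction. Cxcl9 was at 0.0394, 0.149 and 0.0546 TPM with NRF2 KO CM (WT CM higher by 10.43 on the log2 scale, adjusted p = 3e-17). Irf1 was at 69.6, 66.2 and 86.7 TPM (3.78, adjusted p = 7.4e-10). Ciita and Fcgr4 differed by 5.13 and 6.17. For Cxcl9 and Irf1 all 3 libraries with NRF2 KO CM were far under all 3 with WT CM. Among genes lower with WT CM, the log2 difference from NRF2 KO CM was -3.96 for Mmp12, -3.82 for Gsta3, -2.16 for Gclc, -1.57 for Nqo1, -1.58 for Idi1 and -2.48 for Acta2. Saa3 (1.50, adjusted p = 0.12) and Ccr1 (1.29, adjusted p = 0.09) did not pass, but did in 3 and 4 of 17 alternative fits. Ccr1 passed without replicate 3 of NRF2 KO CM/CDDO-Me (1.97, adjusted p = 0.0068). Socs3 passed (1.77, adjusted p = 0.0077) but not without that library (1.30, adjusted p = 0.052). This comparison shares the WT CM/CDDO-Me libraries with the comparison against control media.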

How the data were processed

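RNA was sequenced from BMDM as poly-A libraries. Per the labels and the study's methods, the authors quantified reads with kallisto against the GRCm39 transcriptome and deposited length-scaled TPM per gene, which have the same sum in every library. The depth of each library is therefore not recorded, and a row without a symbol (0.0199 to 0.0635% of a library) was left out. Genes above 1 TPM in at least 3 libraries were kept, 13661 of 35770. Values were scaled by trimmed means (TMM), and log2(TPM + 1) was fitted with limma 3.58.1 (R 4.3.3, empirical Bayes with trend) over all 24 libraries with a mean per group leaving 16 residual degrees of freedom. On this scale, changes of low genes are understated. Tests were two-sided with Benjamini-Hochberg adjustment and a threshold of 0.05. Groups came from the labels. Same-numbered libraries of the 2 main groups deviated together for replicates 2 and 3 (r = 0.37 and 0.39). For replicate 1 they hardly did (r = 0.13, against 0.11 with replicate 2 of WT CM/CDDO-Me). Pairing by number was thus not established, and a replicate block served only as an alternative. Other alternatives were other scaling, filters, pseudocounts (0.1 and 5), weights and left-out libraries. Members and lists were chosen with earlier results of these data known. Named genes were the 15 largest rises and 15 largest falls without overlap and at 5 TPM or more, list members by role, and the 5 most negative and 5 most positive interactions, some of which are not reported here. Lists were described by counts, with no test of a list. Promoter windows came from RefSeq (GRCm38.p6) and gene positions from the GRCm39 annotation.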

Additional observations from a re-analysis of the deposited data

Results flagged for a closer look

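The effect of WT CM differed between CDDO-Me and vehicle for 2055 genes, tested as an interaction with limma. The values that follow are log2 differences, the effect under CDDO-Me minus the effect under vehicle, and each passed an adjusted p of 0.05. Genes low in both control media groups, such as Cxcl9 and Arg1, were tested because of groups where they were higher. This largely fixed their signs. Positive values were found for Cxcl9 (10.64), Cxcl10 (9.36), Ccl5 (9.17), Iigp1 (9.16), Gbp4 (8.95), Gbp2 (8.24) and Tgtp2 (8.18). Smaller positive values were found for Ciita (5.34), H2-Ab1 (4.83), Tnf (3.65), Irf1 (3.37), Cd274 (3.35), Socs1 (2.38) and Il4ra (1.45). Negative values were found for Arg1 (-9.07), Chil3 (-8.14), Ms4a4a (-7.38), Mgl2 (-6.98), Lipn (-6.43), Ear2 (-5.90), Ccl9 (-5.83), Ccl24 (-5.10) and Tmem26 (-5.05). Further negative values were those of Mmp12 (-4.32), Mrc1 (-3.70), Gsta3 (-3.08), Egr2 (-2.67), Clec10a (-2.28), Idi1 (-2.24), Sqle (-1.92), Acta2 (-1.63), Hmgcs1 (-1.56) and Txnrd1 (-0.69). The interaction of Txnrd1 (adjusted p = 0.04) did not pass in 11 of 23 alternatives (adjusted p up to 0.1). That of Acta2 did not pass in 4 of 23, which left out replicate 2 of WT CM/vehicle, replicate 2 of media/CDDO-Me, or replicate 1 or 3 of WT CM/CDDO-Me (-1.37 to -1.59, adjusted p up to 0.075).

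In libraries outside the comparisons, those given medium of KEAP1 KO cancer cells with CDDO-Me, Cxcl9 had a mean of 1230 TPM, whereas the media/CDDO-Me libraries stood at 0, 0.0125 and 0.084 TPM. With 3 libraries a group, single libraries were not tested for standing apart from their group.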

How the results depend on the processing

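The calls were recomputed under 11 other settings and with single libraries left out. No named value that passed the test changed direction under any of them, whereas values near 0 that did not pass, such as those of Prdx1, Ifngr1, Ifngr2, Ifnar1, Tgfb1, Slc2a1, Adgre1 and Chil3 against control media, lay on both sides of 0. The counts of genes that passed, 3656 against control media, 2055 for the interaction and 3542 against NRF2 KO CM, were 5979, 3916 and 5492 without the NRF2 KO libraries of replicate 3 (a setting chosen after seeing the data) and 7541, 5394 and 7197 with array weights, under which these 2 libraries had the lowest weights of the 24 (0.0358 and 0.0735). Fitting the compared groups alone gave 3684 genes for the interaction and 2276 against NRF2 KO CM. Without scaling, 33.6% of the genes that passed against control media were higher (51.1% with scaling), 46.2% for the interaction (55.2%) and 34.0% against NRF2 KO CM (53.4%). Leaving out 1 library gave 2808 to 3283, 1672 to 1907 and 2622 to 3511 genes for the 3 comparisons, and 274 to 290 of the 496 list genes against 317. By list, it left 19 to 19 GTPases, 41 to 42 antiviral genes, 17 to 17 regulators, 19 to 20 class I and 10 to 11 class II genes higher, and 12 to 15 NRF2 targets and 11 to 14 cholesterol genes lower. Of 3087 recomputed values of named genes against control media, 7 no longer passed and 26 newly passed, and the counts were 15 and 5 of 874 for the interaction and 1 and 7 of 322 against NRF2 KO CM. The causes were not tested.

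With a replicate block, 4621 genes passed against control media (2235 higher), 2871 for the interaction and 4666 against NRF2 KO CM, with 351 of the list genes. Same-numbered libraries of WT CM/CDDO-Me and NRF2 KO CM/CDDO-Me did not all deviate together (r = 0.02, 0.32 and 0.26), so their pairing was not established. Sequencing depth is not recorded in TPM, so the precision of low values, such as those of Arg1 or Ccr3 under CDDO-Me, could not be derived.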

Other observations

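Among further gene lists, 5 of 15 genes of NF-kB and its feedback were higher in WT CM/CDDO-Me and 1 was lower, with 3 or 4 higher and 0 lower when any of the 6 libraries was left out. Of 17 genes of the integrated stress response, 6 were higher and 3 lower, and 3 were higher without replicate 1 of media/CDDO-Me or replicate 2 of WT CM/CDDO-Me. Of 15 genes of itaconate and the citric acid cycle, 4 were higher and 2 lower, and 2 were higher and 1 lower without replicate 2 of media/CDDO-Me. Of 22 macrophage identity genes, 8 were higher and 2 lower, and 5 were higher without replicate 2 of media/CDDO-Me. Of 7 regulators of NRF2, 2 were higher and 0 lower, and 1 was higher with any of the 6 libraries left out. Over all genes tested 13.7% were higher and 13.1% lower, and the share of the itaconate list that was lower is near the latter. The counts of these lists are small, and no shared direction is drawn from them.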
